A study of Mus musculus with 12 samples.

Results

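Hprt encodes hypoxanthine-guanine phosphoribosyltransferase, the enzyme that recycles hypoxanthine and guanine into purine nucleotides. It was examined here with 9 other genes of purine nucleotide synthesis: Aprt, Ppat, Gart, Paics, Pfas, Adsl, Atic, Impdh2 and Adss. Hprt was chosen because its signal is low on the arrays of Mbd3-mutated cells, so its genotype differences are described here without a test, and the other genes were chosen for their place in the pathway. Each gene was read from the probe set with its symbol and the highest mean, which gave 9 measured genes out of the 19938 genes on the arrays. Impdh2 was not analysed here. Each of the 9 measured genes had 1 probe set, and all 9 passed the filter on dim genes (above the array median on at least 1 array), as did 13044 genes in all.

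The study concerned Mbd3, part of the NuRD chromatin-remodelling complex, during reprogramming of fibroblasts to pluripotency. RNA of mouse cells was measured on 12 Affymetrix arrays, 1 for each genotype and stage, so p-values compare arrays that differ also in genotype or day. The Mbd3+/+ (WT) arrays were of embryonic fibroblasts (MEF) before treatment, the same kind of cells 4, 8 and 11 days after doxycycline (DOX) switched on a transgene for the factors Oct4, Sox2, Klf4 and Myc, induced pluripotent stem cells (iPSC), and V6.5 embryonic stem cells (ESC). The Mbd3flox/- (flox/-) arrays, 1 floxed and 1 deleted allele with the same kind of transgene, were of MEF, days 4 and 8 of DOX, and iPSC. The Mbd3-/- (-/-) arrays were of MEF and ESC, whose labels, like that of the WT ESC, name no transgene. Among the WT arrays, those of day 8 and of ESC had been published before, and the source name of the WT day 8 array says 4 days where its title says 8. All cells shared medium with LIF and inhibitors and irradiated DR4 feeder fibroblasts, whose RNA may be present on any array. DR4 feeders come from mice bred to withstand several selection drugs, among them 6-thioguanine, which is toxic through HPRT. The labels name no parental line for the flox/- and -/- cells, and line of origin and genotype cannot be told apart.

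Cells obtain purine nucleotides by 2 routes. Salvage enzymes, Hprt and Aprt, attach a free base to phosphoribosyl pyrophosphate (PRPP). The de novo route builds inosine monophosphate (IMP) on PRPP through the enzymes encoded by Ppat, Gart, Pfas, Paics, Adsl and Atic, and Adss and Impdh2 then lead from IMP towards AMP and GMP. Dividing cells depend on this supply for DNA and RNA, and pluripotent cells divide fast. Hprt lies on the X chromosome and is widely used as a selectable marker in mouse ESC.

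RefSeq promoter windows of GRCm38.p6, 300 bases from 250 before to 50 after the gene start, were matched for 9 of the 10 genes, the exception being Pfas. The 250 bases before Hprt are shown because Hprt carries the largest difference. They span chrX:52987828-52988077 on the plus strand, hold 59.6% G and C, and contain 2 copies of the GC box GGGCGG, in capitals.

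Hprt: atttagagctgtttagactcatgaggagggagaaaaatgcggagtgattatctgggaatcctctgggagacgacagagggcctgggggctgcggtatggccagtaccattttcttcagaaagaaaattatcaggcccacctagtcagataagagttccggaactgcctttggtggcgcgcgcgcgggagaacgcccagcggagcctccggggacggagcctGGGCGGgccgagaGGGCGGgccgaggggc

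The whole Hprt window held 3 GC boxes counting both strands, no TATA box (TATAAA) and no E-box (CACGTG). A GC box was found in 35.7% of all 32851 windows and a TATA box in 13.6%. The E-box is shown because Myc, one of the DOX-driven factors, is known to bind these letters and the de novo genes form a pathway. It reads the same on both strands, and 7.15% of all windows held it. Of the 9 matched genes, 3 held it: Atic, Impdh2 and Paics. The windows of the 9 genes held 57.7% to 77.7% G and C, against a median of 52.7% over all windows. The share over all windows was not matched for this. The 30 bases around each match, with the E-box in capitals, are at chr1:71557137-71557166 for Atic, chr9:108560314-108560343 for Impdh2 and chr5:76951087-76951116 for Paics, all on the plus strand.

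Atic: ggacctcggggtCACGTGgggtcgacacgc
Impdh2: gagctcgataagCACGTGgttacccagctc
Paics: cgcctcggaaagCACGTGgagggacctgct

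A match is a description of letters and not evidence of binding. Paics and Ppat lie head to head on chromosome 5, Paics starting at 76951302 on the plus strand and Ppat at 76951578 on the minus strand, so that the gene models overlap by 277 bases. The Paics E-box therefore lies inside the Ppat gene model.

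Hprt (chromosome X, 52988078 to 53021660, GRCm38.p6) was high on every WT array and lower on every Mbd3-mutated array. Values are quantile-normalized log2 signals, and on every array the lower quartile of all probe sets was 4.68 and the median 6.31. In WT cells Hprt read 10.32 in MEF, then 10.76, 11.17 and 10.81 at days 4, 8 and 11, with 10.96 in iPSC and 10.97 in ESC. In flox/- cells it read 8.46 in MEF and 6.51 by day 4, then 5.15 by day 8, and 4.90 in iPSC. In -/- cells it read 5.33 in MEF and 5.84 in ESC. The 6 WT arrays spanned 0.85 log2 units and the 6 mutated arrays 3.55, and the groups did not overlap. Over the 13044 kept genes, 0.146% were lower without overlap in the same way. With 1 array per genotype and stage, the order of neighbouring values within a genotype has no replicate spread to be set against.

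The low values were close to the background of the arrays, but not on all of them. Hprt stood above 72.5% of all probe sets in flox/- MEF and above 52.2% at flox/- day 4. It stood above 33.8% at flox/- day 8, 29.4% in flox/- iPSC, 36.7% in -/- MEF and 44.2% in -/- ESC. On the WT arrays it stood above 90.1% to 94.9%. The name Hprt loss thus describes the later flox/- stages and the -/- arrays, while flox/- MEF kept a clear signal. In a bulk sample, fewer cells with Hprt and less Hprt RNA per cell cannot be told apart.

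**Figure D1:**
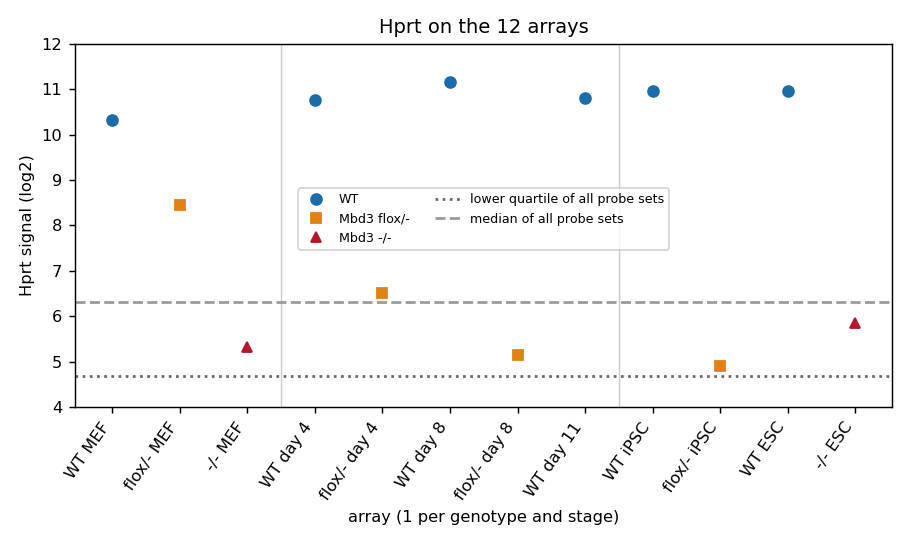
Hprt signal (log2, vertical axis) on each of the 12 arrays, grouped by MEF, DOX and pluripotent stage, 1 point per array, coloured by Mbd3 genotype. The dotted and dashed lines are the lower quartile (4.68) and median (6.31) of all probe sets; WT points lie between 10.32 and 11.17, and flox/- points go from 8.46 in MEF to 4.90 in iPSC.

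Averaged, Hprt was 6.03 ± 1.32 (SD, n = 6) on mutated and 10.83 ± 0.29 (SD, n = 6) on WT arrays. With cell state (MEF, DOX or pluripotent) as a term in the fit, the difference was -4.88 ± 0.54 (SE), or 29.4-fold, the lowest of all 13044 genes. Over the 4 stages that both genotypes have, flox/- was lower than WT by 23.4-fold (-4.55 ± 0.77 SE). On the arrays without DOX, -/- was lower than WT by 38.8-fold (-5.28 ± 0.97 SE). Single arrays moved these values: flox/- against WT was -5.44 without either MEF array, and -/- against WT was -6.14 without WT MEF, -6.19 without -/- ESC and -4.53 without -/- MEF. The flox/- signals at day 8 and in iPSC lie near the lower quartile of 4.68. Those of -/- MEF (5.33) and -/- ESC (5.84) lie between it and the median of 6.31, and flox/- MEF and day 4 lie above the median. Background therefore limits these folds.

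Matched single arrays gave a smaller difference in flox/- MEF than at the later flox/- stages. Hprt was lower in flox/- than in WT by 3.65-fold in MEF, by 19.1-fold and 65.0-fold at days 4 and 8, and by 66.4-fold in iPSC, and flox/- day 8 was lower than WT day 11 by 50.7-fold. Since the flox/- signals at day 8 and in iPSC lie near the lower quartile, no order can be read among these larger folds. In -/- cells it was lower by 31.9-fold in MEF and 35.1-fold in ESC. Relative to MEF of its own genotype, flox/- Hprt differed by -1.95, -3.31 and -3.55 log2 units at days 4 and 8 and in iPSC. In WT cells the same steps were 0.44, 0.85 and 0.64, with 0.49 at day 11. These opposite steps rest on 1 array each and were not tested. Among all kept genes, ranked from the lowest difference, Hprt stood at rank 34 in flox/- MEF, 3 at day 4, 15 at day 8 (2 against WT day 11) and 1 in iPSC, and in -/- cells at rank 8 in MEF and 1 in ESC.

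Markers of macrophages and fibroblasts also differed between genotypes, but not alike at every stage. Markers of macrophages averaged 10.4 in WT MEF, 9.49 in flox/- MEF and 7.20 in -/- MEF, and 9.08 at WT day 4 against 6.67 at flox/- day 4. In iPSC they averaged 7.22 in WT and 5.99 in flox/-. At day 8 the means were close (5.92 in WT, 5.96 in flox/-), and in ESC WT was the lower (6.26 against 6.46 in -/-). The ESC markers went both ways, and the largest gap was of Lyz2 (5.28 in WT, 8.72 in -/-). Cd68 (10.62 against 9.09) and Laptm5 (12.04 against 10.84) were higher in WT ESC. In the fit over all 12 arrays, 12 of 12 macrophage markers and 19 of 19 fibroblast markers had a negative difference in mutated cells, with medians of -1.03 and -1.28 against 0.01 over all genes. By limma 0 of the markers were called, against 0.0383% of all genes. At an unadjusted p under 0.05 there were 8 fibroblast and 0 macrophage markers, against 1589 of all 13044 genes. In flox/- against WT, 5 of 12 macrophage and 7 of 19 fibroblast markers had an unadjusted p under 0.05, against 852 of all genes. In -/- against WT these were 5 of 12 and 1 of 19, against 1243 of all genes. Over WT, flox/- and -/- MEF, Hprt (10.32, 8.46 and 5.33) and the macrophage mean had the same order. At WT day 8 the macrophage mean was 5.92 and Hprt 11.17, and in -/- MEF the fibroblast mean was 11.6 and Hprt 5.33. The part of cell makeup in the Hprt difference was not tested. The Y-linked gene Eif2s3y read 9.78 to 10.70 on the mutated arrays and 5.02 to 9.20 on the WT arrays. The Y-linked genes Uty and Kdm5d overlapped between these groups. Uty read 9.15 to 10.48 on mutated and 7.03 to 9.69 on WT arrays, and Kdm5d 5.62 to 7.87 and 4.69 to 7.56. The WT ESC array, with Eif2s3y at 9.20, had Hprt at 10.97. The X-inactivation RNA Xist overlapped too, with 5.22 (-/- MEF) to 9.68 (flox/- MEF) on mutated arrays and 7.51 to 11.62 on WT arrays. The part of sex in the Hprt difference was not tested beyond these values.

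Mbd3 itself, which checks the labels, read 8.995 to 9.67 on WT arrays, 8.73 to 9.11 on flox/- arrays, 8.15 in -/- MEF and 6.73 in -/- ESC. Where its probes lie relative to the deleted part is not known. The defining markers of the stages were present: 19 of 19 fibroblast markers were above the array median on each MEF array and 17 of 17 pluripotent markers on each pluripotent array. Fibroblast markers were also above the median in WT iPSC (19 of 19, mean 9.12) and fewer in flox/- iPSC (10 of 19, mean 6.83). All 17 pluripotent markers were above the median at flox/- day 8 (mean 10.95), against 10 of 17 at WT day 8 (mean 7.15). At WT day 11 all 17 were above it too (mean 10.49).

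The genes beside Hprt on the X chromosome were described next. Hprt was chosen for its fall and had the lowest difference of all 13044 genes. That no neighbour fell as far is therefore no separate result. The RefSeq table holds 57 genes that start within 1 Mb of Hprt, of which 25 were measured and 13 kept. None of the 13 (0 of 13) separated mutated from WT arrays without overlap, and 0.146% of all genes were lower without overlap. In the limma fit 0 had an adjusted p under 0.05, and 0.0383% of all genes were called. At such low shares these counts do not set the neighbours apart from other genes. The nearest kept neighbours were Phf6, a chromatin-associated PHD finger gene starting at -75.9 kb from the Hprt start, with a log2 difference of 0.08 ± 0.17 (SE, adjusted p = 0.874), and Plac1, a placental gene at 81.9 kb, at -0.20 ± 0.65 (SE, adjusted p = 0.919).

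The largest differences in the window were of Ct55 (1.59 ± 0.57 SE, adjusted p = 0.335), 1700013H16Rik (1.15 ± 0.55, adjusted p = 0.44), Xlr (0.90 ± 0.48, adjusted p = 0.488) and Rtl8c (-0.85 ± 0.27, adjusted p = 0.314), all by limma. Of the 13, 2 (Rtl8c and Ct55) had an unadjusted p under 0.05. The other kept neighbours were Gpc4 (-0.42), Gpc3 (-0.53), Mir363 (0.11), Ccdc160 (0.08), Fam122b (0.45), Mospd1 (-0.25) and Zfp36l3 (0.11), the values being log2 differences. The other 12 measured neighbours were dim on every array, which gives no information on their level, and lay between -0.33 and 0.05. Over the 442 other kept genes of the X chromosome the median difference was 0.00, and the lowest was -1.99.

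**Figure D2:**
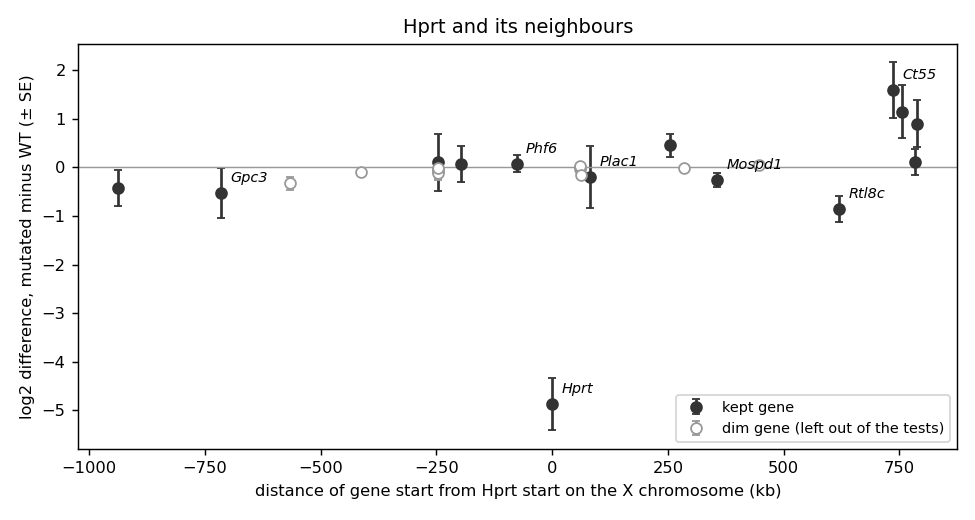
Log2 difference between mutated and WT arrays (vertical axis, ± SE of the limma fit with cell state as a term) for Hprt and the 25 measured genes within 1 Mb, by distance of their start from the Hprt start (kb). Hprt lies at -4.88, Rtl8c at -0.85 is the lowest of the neighbours, and open circles are dim genes left out of the tests.

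The genes whose pattern over the 12 arrays was most like that of Hprt were taken by Pearson correlation, as a description, among 13043 kept genes. They were Churc1 (r = 0.96), a zinc-finger gene, the ribosomal protein gene Rpl34 (r = 0.93), the interferon-pathway transcription factor gene Irf3 (r = 0.92), AI506816 (r = 0.92) and the ATP synthase subunit gene Atp5e (r = 0.90). They lie on chromosomes 12, 3, 7, 5 and 2, and each was lower on all 6 mutated arrays without overlap, as were 0.146% of all genes. Hprt was chosen for this split, so its presence in the genes most like Hprt is no separate result. AI506816 was nearest to Hprt in size, with 10.54 in WT MEF, 8.40 in flox/- MEF and 5.20 in -/- MEF, and 9.09 in WT iPSC against 4.70 in flox/- iPSC. For the other 4 the mean of mutated arrays minus that of WT arrays was -1.11 to -0.57 log2 units. By Spearman correlation 2 of these 5 genes were again among the first 5, and on the deposited values 4 of 5. All points share the 12 arrays and the same genotype split.

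**Figure D3:**
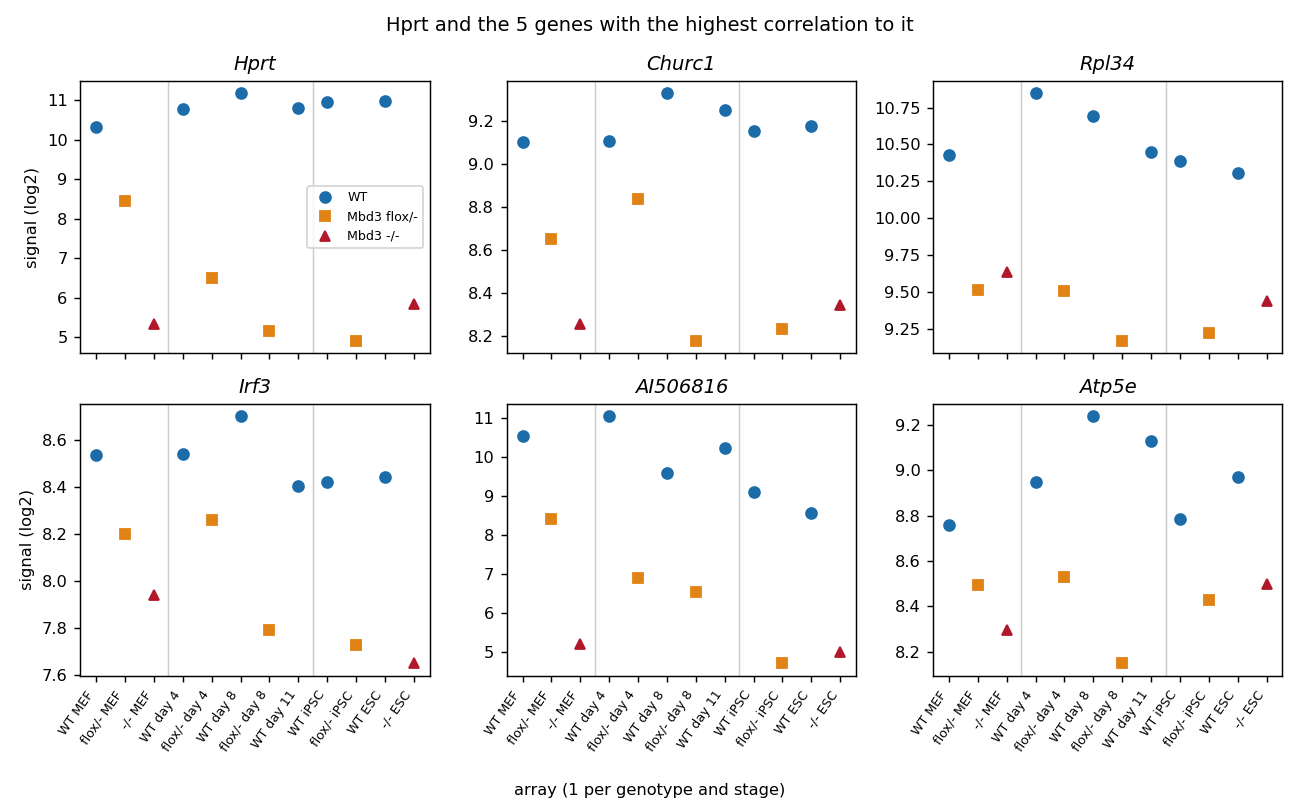
Signal (log2, vertical axes differ in range) of Hprt and of the 5 genes with the highest Pearson correlation to it on each array, 1 point per array, coloured by genotype. In each panel every WT point lies above every mutated point, which the choice of genes by likeness to Hprt favours. The correlations run from 0.90 to 0.96.

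Besides Hprt, which was not tested, 4 genes were called between mutated and WT arrays by limma with cell state as a term. They were Rpl34 (-1.11, adjusted p = 0.0241), AI506816 (-3.75, adjusted p = 0.0425), Rabl2 (-1.01, adjusted p = 0.0452) and Ccdc115 (1.44, adjusted p = 0.0425). They were named after their values were seen, because the count is small. None was called once the 2 previously published arrays were left out (0 genes by limma, 1619 at an unadjusted p under 0.05). This loss was not particular to those arrays. Leaving out any single one of WT day 4, day 8, day 11 or iPSC, flox/- day 4, day 8 or iPSC, or -/- ESC also gave 0 genes. Leaving out WT ESC, WT MEF, flox/- MEF or -/- MEF left 1 to 4. These counts are over all genes with Hprt included, and the full fit had 5, of which 1 was higher. The 4 left without WT MEF held 0 higher genes, so they are not the 4 genes named above.

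The other salvage gene, Aprt, which recycles adenine, showed no such fall. It read 9.07, 9.35, 9.15, 9.03, 9.13 and 9.16 in WT MEF, day 4, day 8, day 11, iPSC and ESC, and 8.99, 9.44, 8.66 and 8.88 in flox/- MEF, day 4, day 8 and iPSC. It read 9.03 in -/- MEF and 8.91 in -/- ESC. All 12 values lay within 0.78 log2 units, and mutated and WT arrays overlapped. The difference between mutated and WT was -0.15 ± 0.14 (SE, limma adjusted p = 0.662). On the arrays without DOX both -/- values lay below the 3 WT values, as 4.46% of all genes did, but the difference of -0.15 ± 0.14 (SE) did not pass (adjusted p = 0.737).

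None of the 8 other measured genes was called in the mutated against WT fit (0 of 8, and 0 of 8 at an unadjusted p under 0.05, against 1589 of all 13044 genes). Pfas, whose enzyme makes formylglycinamidine ribonucleotide, was at 0.40 ± 0.19 (SE, adjusted p = 0.441), Gart at 0.38 ± 0.24 (adjusted p = 0.538), and Adsl, which acts in both IMP and AMP synthesis, at 0.35 ± 0.17 (adjusted p = 0.453). Ppat was at 0.24 ± 0.17, Atic at 0.21 ± 0.13, Paics at -0.06 ± 0.12 and Adss at -0.10 ± 0.11 (SE, limma adjusted p from 0.531 to 0.845). A p that misses the threshold does not show that these genes were equal between genotypes.

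In flox/- against WT over the 4 shared stages, again 0 of 8 genes were called and 0 of 8 had an unadjusted p under 0.05, while 0% of all genes were called by limma and 852 had an unadjusted p under 0.05. Gart (0.58 ± 0.29 SE, adjusted p = 0.693) and Pfas (0.52 ± 0.24 SE, adjusted p = 0.693) had the largest differences. In -/- against WT, 0 of 8 were called and 0% of all genes, and Adsl had the only unadjusted p under 0.05 among the 8 (0.45 ± 0.15 SE, adjusted p = 0.518), as did 1243 genes in all.

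Stage by stage, on single arrays and with no test, the flox/- day 4 array was higher than the WT day 4 array for 8 of 8 genes, with a median of 0.39 against 0.08 over all genes. The largest of these were Gart (0.98), Adsl (0.83) and Pfas (0.71), and 0 of 8 reached 2-fold, against 4.82% of all genes 2-fold higher. At day 8, Gart was 2.51-fold and Pfas 2.23-fold higher in flox/- than in WT, which is 2 of 8 genes at least 2-fold higher against 13.1% of all genes. Against the WT day 11 array, the flox/- day 8 values differed by 0.05 (Pfas) and 0.10 (Gart), so this gap was not seen against WT day 11. In iPSC the 8 genes lay between -0.25 and 0.19 of WT. In -/- MEF Pfas was 0.61, Atic 0.60 and Adsl 0.55 above WT MEF, and Adss and Paics were each 0.36 below. In that pair 0 of 8 genes were 2-fold apart, against 3.06% of all genes higher and 3.96% lower.

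The de novo genes differed between pluripotent cells and MEF, as most kept genes did. In pluripotent cells all 6 de novo genes and Adss rose over MEF, from 1.32-fold to 5.57-fold. In the limma fit of the 4 pluripotent against the 3 MEF arrays, 7 of 9 measured genes were called higher, against 30.1% of all genes higher and 60.0% in either direction. For 7 of the 8 genes besides Hprt the pluripotent and MEF arrays did not overlap, against 32.3% of all genes higher without overlap. The median difference of the 9, Hprt and Aprt included, was 0.59, against 0.03 over all genes.

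Ppat encodes the amidotransferase of the committed step. It read 8.14, 8.22 and 8.39 in WT, flox/- and -/- MEF, and 11.00, 10.76, 10.41 and 10.74 in WT iPSC, flox/- iPSC, WT ESC and -/- ESC. The DOX arrays lay between at WT day 4 (10.09) and WT day 8 (9.81), and at 10.46, 10.79 and 10.63 at flox/- day 4, flox/- day 8 and WT day 11. All MEF values were below all others. Ppat rose 5.57-fold in pluripotent cells (2.48 ± 0.16 SE, limma adjusted p = 2.81e-05) and 4.30-fold under DOX (2.10 ± 0.24 SE, adjusted p = 0.00551).

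Pfas read 7.62, 7.87 and 8.22 in WT, flox/- and -/- MEF and 9.72 to 9.88 on the pluripotent arrays. Under DOX it read 9.05 at WT day 4, 8.48 at WT day 8 and 9.58 at WT day 11, and 9.76 and 9.63 at flox/- days 4 and 8. The WT day 8 array was the lowest of the DOX arrays and yet above all MEF. Pfas rose 3.79-fold in pluripotent cells (1.92 ± 0.15 SE, limma adjusted p = 6.87e-05) and 2.64-fold under DOX (1.40 ± 0.32 SE, adjusted p = 0.0307).

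Gart, whose protein joins several steps of the route in a single chain, read 9.57, 9.66 and 9.88 in WT, flox/- and -/- MEF and 11.23 to 11.44 on the pluripotent arrays. It read 10.79 at WT day 4, 9.96 at WT day 8, 11.18 at WT day 11, 11.77 at flox/- day 4 and 11.28 at flox/- day 8. The WT day 8 value lay just above -/- MEF, and flox/- day 4 was the highest of the 12. Gart rose 3.12-fold in pluripotent cells (1.64 ± 0.12 SE, limma adjusted p = 4.56e-05). Under DOX it did not pass (1.29 ± 0.37 SE, adjusted p = 0.0547), and without the WT day 8 array it did (1.55, adjusted p = 0.0112).

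Adsl read 9.08, 9.29 and 9.62 in WT, flox/- and -/- MEF, and 10.30, 10.49, 10.11 and 10.57 in WT iPSC, flox/- iPSC, WT ESC and -/- ESC. Under DOX the WT arrays read 10.39, 10.16 and 10.46 at days 4, 8 and 11, and the flox/- arrays 11.23 and 10.15 at days 4 and 8. The flox/- day 4 value stood apart from the rest. Adsl rose 2.05-fold in pluripotent cells (1.04 ± 0.17 SE, limma adjusted p = 0.0016) and 2.22-fold under DOX (1.15 ± 0.27 SE, adjusted p = 0.0347).

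Paics and Atic, which act in the middle and at the end of the route, changed less. Paics read 11.98 to 12.33 in MEF, 12.65 to 12.97 on the pluripotent arrays and 12.66 to 13.03 under DOX, with no overlap between MEF and the others. It rose 1.5-fold in pluripotent cells (0.59 ± 0.14 SE, limma adjusted p = 0.00794) and 1.54-fold under DOX (0.63 ± 0.16 SE, adjusted p = 0.0401). Atic read 10.55, 10.91 and 11.15 in WT, flox/- and -/- MEF, and 11.34 to 11.44 on the pluripotent arrays. It rose 1.44-fold in pluripotent cells (0.53 ± 0.15 SE, limma adjusted p = 0.0188), but did not pass without flox/- MEF (adjusted p = 0.0503) or under DOX (0.57 ± 0.20 SE, adjusted p = 0.0911).

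Adss, the adenylosuccinate synthase gene of the AMP branch, read 10.84, 10.51 and 10.48 in WT, flox/- and -/- MEF, 10.88 to 11.23 on the pluripotent arrays and 11.05 to 11.23 under DOX. The lowest pluripotent value lay just above the highest MEF value. Adss rose 1.32-fold in pluripotent cells (0.40 ± 0.14 SE, limma adjusted p = 0.0419) and 1.45-fold under DOX (0.53 ± 0.14 SE, adjusted p = 0.0435), and the pluripotent call was lost on leaving out any of 4 arrays (WT iPSC, flox/- MEF, flox/- iPSC or -/- MEF). The salvage genes were not called: Aprt was at -0.01 ± 0.11 (SE, adjusted p = 0.931) and Hprt, with its split by genotype, at 0.13 ± 1.87 (SE, adjusted p = 0.955).

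**Figure D4:**
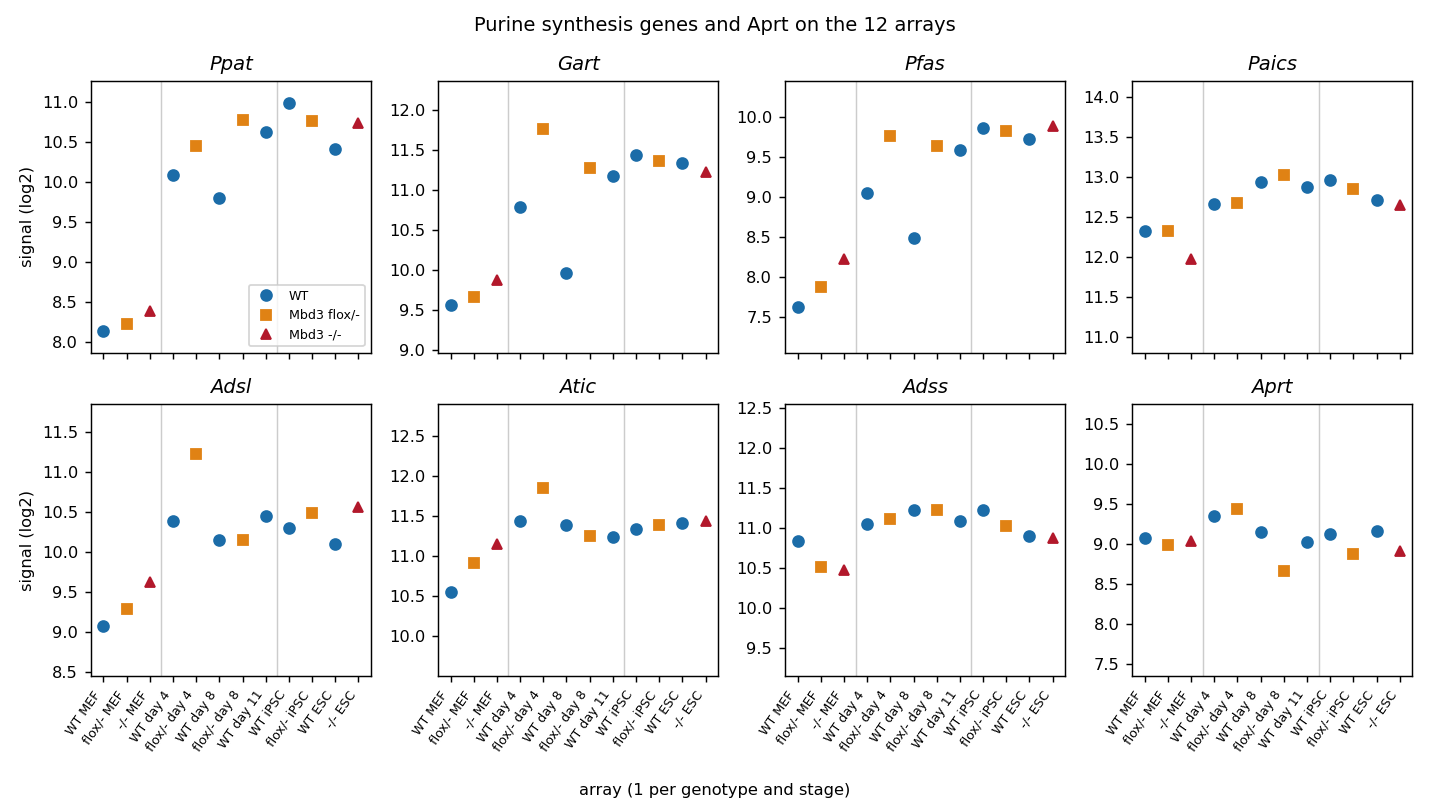
Signal (log2, vertical axes of equal span) of 8 genes on each of the 12 arrays, 1 point per array, coloured by genotype, with grey lines between MEF, DOX and pluripotent stages. Ppat, Gart, Pfas and Adsl are lowest on the 3 MEF arrays, and Gart and Pfas at WT day 8 lie nearest to MEF; Aprt stays between 8.66 and 9.44.

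Under DOX, 5 of 9 genes were called higher than in MEF by limma (Ppat, Pfas, Adsl, Paics and Adss), against 5.88% of all genes. For 7 of the 8 genes besides Hprt, DOX and MEF arrays did not overlap, against 15.3% of all genes higher without overlap. The count of calls fell to 1 (Ppat) without WT MEF, WT day 11, flox/- MEF or -/- MEF, and to 2 without flox/- day 4 or flox/- day 8. Calls over all genes, 1768 in either direction in the full fit, fell in the same fits to 414, 659, 150 and 402, and to 688 and 1375. Hprt was at 0.84 ± 1.73 (SE, adjusted p = 0.748) and Aprt at 0.09 ± 0.19 (SE, adjusted p = 0.75). Between DOX and pluripotent arrays 0 of 9 were called and 0 of 9 had an unadjusted p under 0.05 (limma calls on 0.00767% of all genes, 2052 genes at an unadjusted p under 0.05). The comparisons share arrays, so their values stand side by side and are not independent.

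Cell makeup moved with state. In pluripotent against MEF arrays 17 of 17 pluripotent markers were called higher, 19 of 19 fibroblast markers lower and 10 of 12 macrophage markers lower. Of all genes 30.1% were called higher and 29.9% lower in that comparison. Under DOX the counts were 4 of 17 higher, 4 of 19 lower and 0 of 12, against 5.88% of all genes higher and 7.67% lower. There 7 of the 12 macrophage markers had an unadjusted p under 0.05 in limma, as did 4538 of all 13044 genes. Whether the change in cell makeup has a part in the rise of the purine genes was not tested.

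The mean of the 6 de novo genes was 9.55, 9.71 and 9.87 in WT, flox/- and -/- MEF and 10.95 to 11.15 on the pluripotent arrays. The 5 genes most like this mean over 12 arrays (Pearson r from 0.98 to 0.99, as a description) were Rpusd2, Wdr43, Tfrc, Polr1b and Aarsd1. Wdr43 acts in ribosome production, Polr1b is a subunit of RNA polymerase I, and Tfrc is the transferrin receptor. Hprt correlated with this mean at r = -0.13 and Adss at r = 0.72.

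The supply of the shared substrate was measured next. Of the PRPP synthetase list, 2 of 4 tested genes rose in pluripotent cells and 0 fell: Prps1, a PRPP synthetase (2.68-fold, 1.42 ± 0.23 SE, limma adjusted p = 0.00144), and Prpsap2, its associated protein (2.31-fold, adjusted p = 0.000431). Under DOX Prpsap2 alone was called (1.83-fold, adjusted p = 0.0408). Prps1 read 9.33 to 9.63 in MEF and 10.25 to 11.18 on pluripotent arrays, but 9.61 at WT day 8.

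Among other isoforms of the AMP and GMP branches, 1 of 9 rose and 1 fell in pluripotent cells. The mitochondrial adenylate kinase gene Ak4 rose 3.0-fold and Ak3, also mitochondrial, fell 3.39-fold (limma adjusted p = 0.00618 and 0.000426). Ak4 also rose under DOX (2.35-fold, adjusted p = 0.0393).

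Salvage and breakdown genes other than Hprt and Aprt went both ways, with 3 of 17 higher and 5 lower in pluripotent cells and a median of -0.10. Higher were Itpa (2.27-fold), which removes inosine triphosphate, Dck (1.87-fold), the deoxycytidine kinase gene, and the nucleotidase gene Nt5c2 (1.24-fold). The largest falls were in Gda, the guanine deaminase gene (4.77-fold), Xdh, which makes uric acid (2.56-fold), and the adenosine kinase gene Adk (2.16-fold), with limma adjusted p from 0.00535 to 0.0117. Under DOX only the AMP deaminase gene Ampd3 was called among the 17 (1.94-fold lower, adjusted p = 0.0459).

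Folate one-carbon and serine genes, which supply carbon and glycine to the purine ring, had 14 of 26 called higher and 4 lower in pluripotent cells. The glycine cleavage genes Gldc (17.4-fold, limma adjusted p = 1.37e-05) and Amt (15.0-fold, adjusted p = 2.12e-05) and the serine hydroxymethyltransferase gene Shmt1 (6.73-fold, adjusted p = 3.87e-05) rose most. Aldh1l2 (4.00-fold), Mthfd2l (2.64-fold) and Ggh (2.01-fold) fell. Under DOX 4 of 26 were higher and 1 lower, among them Mthfd1, which makes the formyl donor of the route (3.49-fold higher, adjusted p = 0.028), Mtr (2.80-fold), Mtrr (2.07-fold) and Aldh1l2 (6.45-fold lower).

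Of the pyrimidine genes, 10 of 18 were higher and 4 lower in pluripotent cells. Upp1, the uridine phosphorylase gene (19.0-fold), Dctpp1 (4.33-fold) and Dtymk (3.34-fold) led the rise, and Uprt (4.58-fold), Ctps2 (2.16-fold) and Cmpk1 (1.7-fold) the fall. Under DOX 5 of 18 were higher, led by Upp1 (7.79-fold), Dctpp1 (3.23-fold) and Umps (2.23-fold), and 0 lower. Of the 4 deoxynucleotide genes Rrm2 rose 2.38-fold and Samhd1 fell 1.79-fold in pluripotent cells, and none was called under DOX (0 of 4, also 0 at an unadjusted p under 0.05). Nucleoside and nucleobase transporters had 5 of 9 higher, led by Slc29a1 (3.29-fold), Slc29a4 (2.35-fold) and Slc28a1 (2.14-fold), and 1 lower, Slc43a3 (2.52-fold). Under DOX Slc29a2 was called (2.33-fold higher). The list counts stand beside 30.1% of all genes higher and 29.9% lower in pluripotent cells, and 5.88% and 7.67% under DOX.

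Of 11 genes of the Myc family and its partners, 2 rose and 3 fell in pluripotent cells. Mycn rose 11.1-fold (limma adjusted p = 9.43e-05) and Mycl 1.80-fold, while Mxd4 fell 4.16-fold, Myc 2.66-fold (adjusted p = 0.0489) and Mlxip 1.46-fold. Myc, also a DOX-driven factor, read 9.35 in WT MEF, 10.86 at WT day 4 and 11.99 at WT day 8, against 6.88 and 8.21 at flox/- days 4 and 8. Under DOX 0 of 11 were called (1 at an unadjusted p under 0.05). In the 3 genotype comparisons no gene of any of these nucleotide and Myc lists was called. Of all genes 0.0383% were called in mutated against WT and 0% in the other comparisons, so this absence is not particular to the lists.

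**Figure D5:**
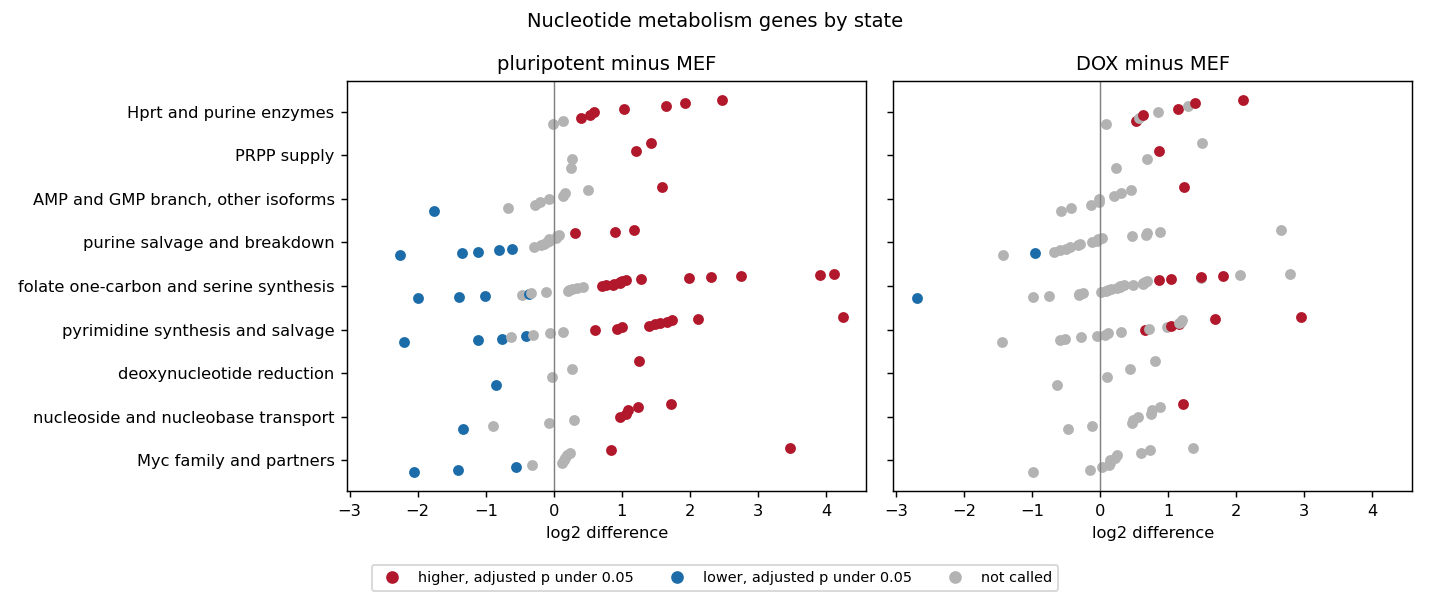
Log2 difference (horizontal axis) of each tested gene, by gene list (rows), for pluripotent minus MEF arrays (left) and DOX minus MEF arrays (right), 1 point per gene. Red and blue mark an adjusted p under 0.05, higher or lower; 7 of 9 points of the top row are red on the left and 5 of 9 on the right.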

How the data were processed

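The values deposited by the authors are log2 signals of 35512 probe sets on 12 arrays, from 3.11 to 13.99. Per the labels' protocols, RNA was extracted with TRIzol and labelled with biotin by an Affymetrix kit, and the method of summary and normalization was not given in the sources used here. Quantile normalization was applied because the array medians were up to 0.122 apart. Probe sets with a single symbol (21789) stood for 19938 genes. Where a gene had several, that with the highest mean stood for it. Genes above the array median on at least 1 array (13044) were tested with limma 3.58.1 in R 4.3.3 (moderated statistics, Benjamini-Hochberg over all of them, called at an adjusted p under 0.05). State comparisons used the arrays of both states. Mutated against WT used all 12 with a state term, flox/- against WT 8 arrays with stage as a block, and -/- against WT the 7 arrays without DOX with state and genotype terms. SE is from the fit and SD over arrays. The fit was tested on simulated data. The number of arrays limits the precision.

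The genes and gene lists were chosen with earlier results of these data known. Named were all member genes, up to 3 genes a direction with the largest difference among those called in each other list and comparison, the kept X-linked genes within 1 Mb of Hprt, and the 5 genes most correlated with Hprt and with the de novo mean; marker lists are given by counts. Alternatives were the deposited values, median centring, no filter, the mean of probe sets, a single fit of all arrays, leaving out the previously published or the -/- arrays, and leaving out each array. A fit of the state comparisons with a term for Mbd3 mutation was added after seeing the data. Figures were drawn with matplotlib 3.10.9.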

Additional observations from a re-analysis of the deposited data

Results flagged for a closer look

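In the DOX group, 1 array stood far from the others for Adsl: 11.23 at flox/- day 4, with the next value at 10.46 and the lowest at 10.15. In 18 groups tested in this way, chance alone flags about 1 in 20.

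Hprt moved in opposite directions between the genotypes from MEF to iPSC, by -3.55 in flox/- cells and by 0.64 in WT cells, with 1 array at each point. The difference between these steps was not tested.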

How the results depend on the processing

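Counts of called genes, of the 9 measured or the 8 besides Hprt, kept to within 1.5 times under every alternative run, except for DOX against MEF, where 5 fell to 1 without the -/- arrays and ranged from 1 to 6 on leaving out each array. Pluripotent against MEF ranged from 5 to 7 and the other 4 comparisons stayed at 0. The rise of Ppat, Gart, Pfas, Adsl and Paics in pluripotent cells passed under every alternative. Small differences changed sign. Aprt in pluripotent against MEF was 0.003 on the deposited values and 0.024 without the -/- arrays, and ranged from -0.059 to 0.035 on leaving out each array. Hprt in pluripotent against MEF was -0.44 without the -/- arrays, -0.65 with the added Mbd3 term and -0.80 without the previously published arrays (leave-one-out range -1.22 to 1.28). Hprt in DOX against MEF was -0.51 without the -/- arrays and -0.35 with the Mbd3 term (range -0.51 to 1.99), and in DOX against pluripotent -0.064 without the -/- arrays (range -0.38 to 1.65). Paics in DOX against pluripotent was -0.0086 without the -/- arrays and -0.012 without the previously published arrays (range -0.0093 to 0.096), and Ppat in -/- against WT was -7e-04 without the latter (range -7e-04 to 0.29). On leaving out each array, Adsl (-0.077 to 0.19) and Atic (-0.062 to 0.092) in DOX against pluripotent, Paics in flox/- against WT (-0.039 to 0.032) and Gart in -/- against WT (-0.15 to 0.27) also changed sign. The causes were not tested. The Hprt genotype difference kept its sign throughout, from -5.32 to -4.63 over all 12 arrays, -5.44 to -4.05 in flox/- against WT and -6.19 to -4.53 in -/- against WT on leaving out each array. The flox/- and WT arrays were matched by stage as a block in their fit, and no label numbers the arrays for any other pairing. Averaging probe sets cannot move these genes, which have 1 each. Signal over background limits Hprt folds in mutated cells.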
